A study of Mus musculus with 9 samples.

Results

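Cardiac potassium channel genes were examined in the hearts of 4 male staggerer homozygotes (RORasg/sg) and 5 male wild-type (WT) mice. The members were 9 genes, Kcnj2, Kcnj3, Kcnj11, Kcnd2, Kcnd3, Kcnip2, Kcnq1, Kcna5 and Kcnh2, and they were taken as every non-control probe on the array whose accession maps to one of these symbols. This gave 10 of the 41174 probes, 2 of them for Kcnd2 and 1 for each of the other members, out of 19092 named genes on the array. Both groups were labelled C57BL/6, were 3 to 4 months old, were weaned at 3 weeks onto the NIH31 diet and received no treatment. The staggerer mutation is a germline deletion within Rora, which encodes the orphan nuclear receptor RORalpha, so every cell type of the mutant animals carries it. Whole-heart RNA of each mouse was hybridised to 1 single-colour Agilent array, and the comparison bears on which cardiac transcripts depend on RORalpha. In whole-heart RNA, fewer cells of a type and less RNA per cell cannot be told apart.

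Potassium currents end the cardiac action potential and hold the resting potential. Inward rectifier channels of the Kir class conduct near the resting potential, whereas voltage-gated Kv channels open during depolarisation and drive repolarisation. In the mouse ventricle the fast transient outward current, carried by Kv4 channels with the accessory protein KChIP2, and the rapidly activating delayed rectifiers dominate repolarisation, while KvLQT1 and ERG channels carry the larger share of it in human hearts. Muscarinic stimulation of the atria opens the GIRK channel, and metabolic stress opens the ATP-sensitive channel.

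Signals are given as log2 of the processed spot intensity minus the 75th percentile of the same array, so that 0 stands for a signal at that percentile, and each probe is compared only with itself. The 75th percentile of processed signal was 264 to 773 in the RORasg/sg arrays and 436 to 684 in the WT arrays. RORasg/sg 2, 3 and 4 and WT 4 lay under 500 and are called the dimmer arrays, which leaves 1 RORasg/sg and 4 WT arrays as the brighter ones. Across genes, each array was correlated with every brighter WT array, and the median r was 0.962 for RORasg/sg 1, 0.861, 0.810 and 0.757 for RORasg/sg 2, 3 and 4, and 0.895 for WT 4. Detection was similar, with 80.7% to 87.7% of an array's probes well above background. In each RORasg/sg heart both bright probes of Rora read below all WT hearts, with log2 differences of -4.13 and -5.34. However, the position of these probes against the deleted part is not known. Each had an adjusted p of 0.296 in limma over all probes, so neither passed the threshold used for the members. A dimmer Rora probe, A_52_P652950, differed by -1.08 (adjusted p = 0.444 in limma over all probes), and its groups overlapped. Over 27773 genes the median log2 difference (RORasg/sg minus WT) was 0.41, but the median deviation of all genes from the WT mean was -0.39 in RORasg/sg 1 and 0.55 to 0.75 in RORasg/sg 2, 3 and 4. The arrays were in 3 slides, with RORasg/sg 1 and 2 and WT 1 and 2 on slide 1, RORasg/sg 3 and 4 and WT 3 and 4 on slide 2, and WT 5 on slide 3.

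The 10 potassium channel probes were well above background in all 90 measurements, with 0 saturated and 0 outlier spots. The scanner's own error of these signals was at most 18.9% of the signal. The plot of every probe by heart shows the values used below.

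**Figure D1:**
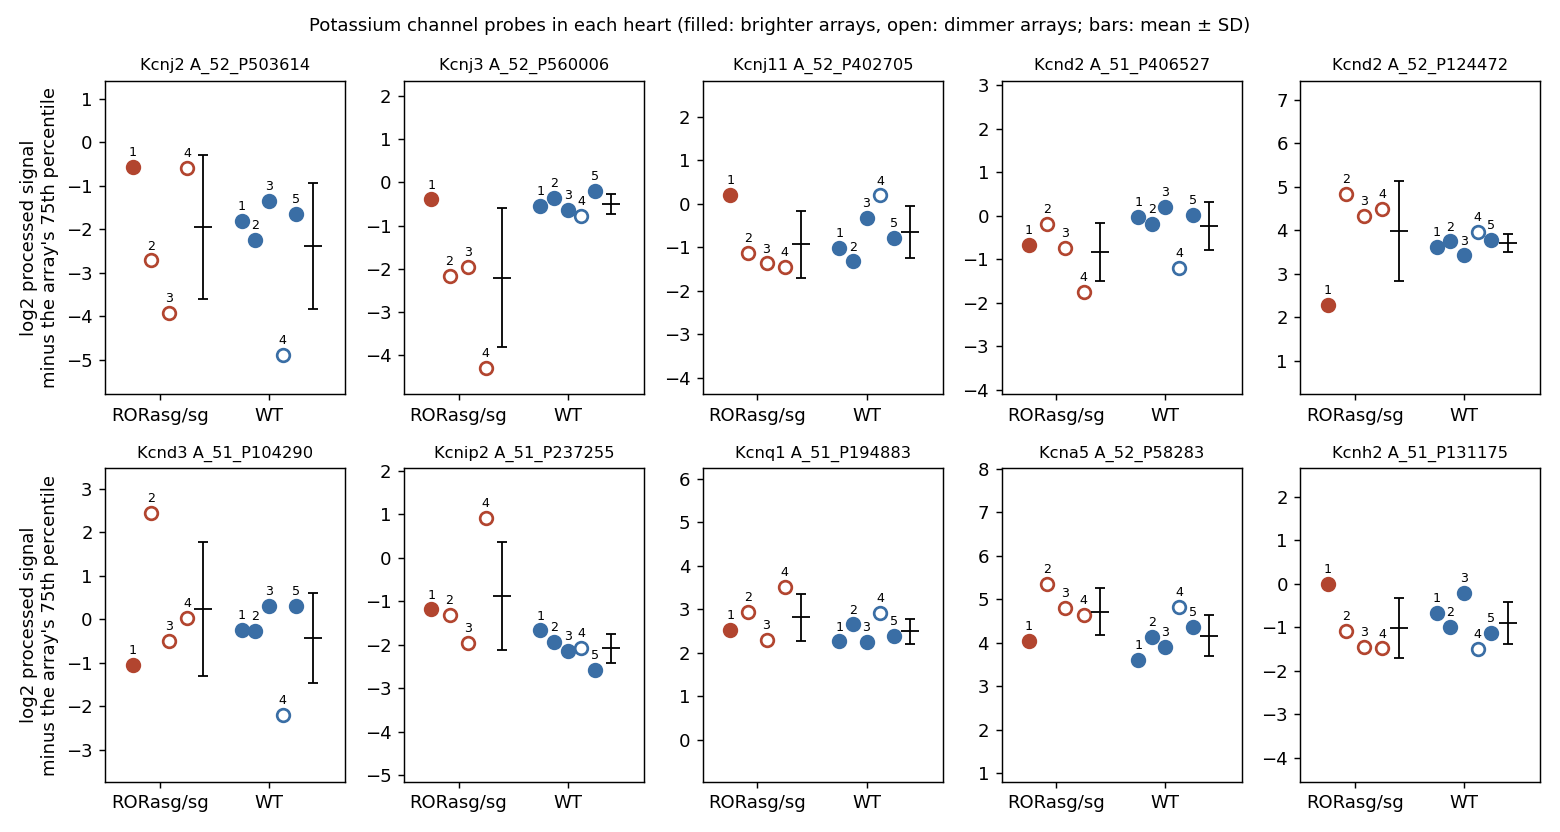
Signal of each of the 10 potassium channel probes (vertical axis, log2 processed signal minus the 75th percentile of the array) in the 4 RORasg/sg and the 5 WT hearts, numbered by replicate, with mean ± SD as bars. RORasg/sg 2, 3 and 4 lie below all WT hearts for Kcnj3, and the groups overlap for all 10 probes.

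RORalpha binds DNA at a short A/T-rich stretch followed by the letters AGGTCA, and clock factors such as BMAL1 bind the E-box, CACGTG. The RefSeq promoter table (GRCm38.p6) held 7 of the 9 members, all but Kcnj11 and Kcnq1, as windows from 250 bases before to 50 bases after an annotated start. The core of the ROR response element, searched as TAGGTCA on both strands, was in 0 of these 7 windows and in 2.61% of all 32851 windows. The E-box was in 1 of the 7, that of Kcnj2, and in 7.15% of all windows. The lines that follow give the 250 bases before the start for Kcnj3 and Kcnip2, the members with the largest difference in each direction, and for Kcnj2, whose E-box is in capitals and begins 84 bases before the start. The windows are chr2:55435720-55435969 (plus strand) for Kcnj3, chr19:45816064-45816313 (minus strand) for Kcnip2 and chr11:111065914-111066163 (plus strand) for Kcnj2, and for Kcnj3 and Kcnip2 the annotated gene also has transcripts that start further upstream. The G and C content of the 7 windows was 55.0% to 74.3%, against a median of 52.7% over all windows. A match describes the letters of a window, not binding.
Kcnj3: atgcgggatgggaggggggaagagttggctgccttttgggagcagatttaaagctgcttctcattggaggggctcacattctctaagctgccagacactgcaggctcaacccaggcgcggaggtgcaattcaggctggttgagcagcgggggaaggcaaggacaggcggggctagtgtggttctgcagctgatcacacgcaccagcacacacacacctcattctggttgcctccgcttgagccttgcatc
Kcnip2: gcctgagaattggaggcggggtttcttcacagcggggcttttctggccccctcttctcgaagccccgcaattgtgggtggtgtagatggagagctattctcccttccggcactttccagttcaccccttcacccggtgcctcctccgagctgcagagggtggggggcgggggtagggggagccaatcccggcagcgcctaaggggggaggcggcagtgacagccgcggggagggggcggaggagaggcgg
Kcnj2: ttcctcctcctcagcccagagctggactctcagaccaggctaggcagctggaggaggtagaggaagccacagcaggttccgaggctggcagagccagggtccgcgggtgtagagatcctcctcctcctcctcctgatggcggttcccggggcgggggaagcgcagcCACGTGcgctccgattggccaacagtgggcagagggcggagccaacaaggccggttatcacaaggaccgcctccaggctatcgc

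Among the inward rectifiers, Kcnj3 had the largest difference of the 9 members, with a lower mean in RORasg/sg hearts that came from 3 of the 4. Kcnj3 encodes GIRK1 (Kir3.1), the pore subunit that joins GIRK4 in the acetylcholine-activated channel of atria and pacemaker tissue. RORasg/sg hearts 1 to 4 read -0.40, -2.17, -1.96 and -4.30, and WT hearts 1 to 5 read -0.56, -0.36, -0.64, -0.78 and -0.20. RORasg/sg 2, 3 and 4 thus lay below every WT heart, RORasg/sg 1 lay within the WT range, and the dimmer WT heart, WT 4, lay close to the other WT hearts. On the unscaled intensity, RORasg/sg hearts 1 to 4 gave 587, 65.1, 100.4 and 13.4, while WT 4 gave 255 and no WT heart gave less. The means were -2.21 ± 1.60 in RORasg/sg (SD, n = 4) and -0.51 ± 0.229 in WT (SD, n = 5), a log2 difference of -1.70 (SE 0.653, 95% interval -3.12 to -0.27), or 3.24-fold lower. In limma across all genes the Benjamini-Hochberg adjusted p was 0.417, so it did not pass the threshold of 0.05. It passed without RORasg/sg 1 (-2.30, limma adjusted p = 0.0157), in a fit that called 37.4% of all genes, and with array weights (-1.95, limma adjusted p = 0.00375), in a fit that called 54.5%. Without RORasg/sg 4 the difference was -1.0. Within slides 1 and 2 it was -0.82 and -2.42, in the 4 dimmer arrays -2.03 with a single WT heart, and in the 5 brighter arrays 0.043 with a single RORasg/sg heart. Kcnj5, the GIRK4 partner, named here for its role and after its values were seen, differed by -0.99 (SE 0.686, limma adjusted p = 0.435), with 3 of 4 RORasg/sg and 5 of 5 WT signals detected over background. The 3 genes whose pattern over the 9 arrays was most like that of Kcnj3 were those of the accessions AK032729 and AK031823 and Slc9a3r2, with Pearson r of 0.989, 0.986 and 0.983 across arrays that share the brightness split.

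Kcnj2, the gene of Kir2.1 and of the main ventricular inward rectifier current, was spread widely in both groups. RORasg/sg hearts 1 to 4 read -0.57, -2.72, -3.94 and -0.59, and WT hearts 1 to 5 read -1.81, -2.25, -1.34, -4.90 and -1.65. WT 4 was the lowest of all 9 hearts, and RORasg/sg 1 and 4 were the highest. The log2 difference of 0.44 (SE 0.862, 95% interval -1.44 to 2.31, limma adjusted p = 0.757) took the other sign without WT 4 (-0.19), RORasg/sg 1 (-0.024) or RORasg/sg 4 (-0.019). The interval therefore holds differences of several fold either way.

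Kcnj11 encodes Kir6.2, the pore of the ATP-sensitive channel, which opens when ATP runs low. RORasg/sg hearts 1 to 4 read 0.20, -1.12, -1.37 and -1.44, and WT hearts 1 to 5 read -1.01, -1.32, -0.33, 0.20 and -0.78. RORasg/sg 1 and WT 4 shared the highest value and RORasg/sg 3 and 4 were the lowest, yet the ranges overlapped. The difference was -0.28 (SE 0.504, 95% interval -1.38 to 0.82, limma adjusted p = 0.732). The slides gave opposite signs, 0.71 within slide 1 and -1.34 within slide 2. Abcc9, the gene of the sulfonylurea receptor that Kir6.2 joins in ventricular muscle, differed by 0.33 (SE 0.359), and Kcnj8, the Kir6.1 pore of vascular cells, by 0.047 (SE 0.317). Both are named for their role and after their values were seen.

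The transient outward group holds the Kv4 pores Kcnd2 (Kv4.2) and Kcnd3 (Kv4.3) and their accessory subunit Kcnip2 (KChIP2), which raises Kv4 surface expression and slows inactivation. Kcnip2 had the largest positive difference of the 9 members. RORasg/sg hearts 1 to 4 read -1.19, -1.32, -1.95 and 0.91, and WT hearts 1 to 5 read -1.67, -1.94, -2.14, -2.07 and -2.59. RORasg/sg 1, 2 and 4 lay above every WT heart and RORasg/sg 3 lay within the WT range. On the unscaled intensity, RORasg/sg hearts 1 to 4 gave 339, 117, 101 and 498, and WT hearts ran from 90.8 to 214. There RORasg/sg 1 and 4 lay above every WT heart, and RORasg/sg 2 and 3 lay within the WT range. The means were -0.89 ± 1.25 in RORasg/sg (SD, n = 4) and -2.08 ± 0.335 in WT (SD, n = 5), a log2 difference of 1.20 (SE 0.564, 95% interval -0.033 to 2.43). This was 2.29-fold higher, with a limma adjusted p of 0.418, and it did not pass. The value was 0.60 without RORasg/sg 4, and it was above 0 under all 28 alternatives, from 0.55 within slide 1 to 1.59 within slide 2. Those that altered only the moderation, the filter or the probe rule could not change it, as Kcnip2 has 1 probe. All of them reuse the same hearts. The Kcnip2 difference was 0.89 for the 5 brighter arrays and 1.29 for the 4 dimmer ones, against medians of all genes of -0.34 and 0.50 there.

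Kcnd2 was measured by 2 probes that did not show the same pattern. On the brighter probe, A_52_P124472, RORasg/sg hearts 1 to 4 read 2.28, 4.84, 4.33 and 4.50, and WT hearts 1 to 5 read 3.62, 3.74, 3.42, 3.96 and 3.79. On this scale RORasg/sg 1 was below every WT heart and RORasg/sg 2, 3 and 4 were above every WT heart. On the unscaled intensity, RORasg/sg hearts 1 to 4 gave 3760, 8361, 7857 and 5982, and WT hearts ran from 6760 to 8610. There no RORasg/sg heart exceeded the WT range, and RORasg/sg 1 and 4 lay below it. The scaled difference was 0.28 (SE 0.491, 95% interval -0.79 to 1.35, limma adjusted p = 0.725). Without RORasg/sg 1 it was 0.85 (limma adjusted p = 0.0264), with array weights 0.69 (limma adjusted p = 0.0366), and in the 5 brighter arrays, where RORasg/sg 1 stands alone, it was -1.36 (limma adjusted p = 0.0225, in a fit that called 4.29% of all genes). The fit without RORasg/sg 1 called 37.4% of all genes, and the fit with array weights called 54.5%. Without RORasg/sg 2 the scaled difference was -0.0024. On the other probe, A_51_P406527, RORasg/sg hearts 1 to 4 read -0.66, -0.18, -0.73 and -1.74, and WT hearts 1 to 5 read -0.02, -0.18, 0.20, -1.19 and 0.02. Here RORasg/sg 4 was the lowest and no RORasg/sg heart exceeded the WT range. That probe differed by -0.60 (SE 0.483, 95% interval -1.65 to 0.46, adjusted p = 0.477 in limma over 36402 probes).

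Kcnd3 read -1.05, 2.45, -0.50 and 0.03 in RORasg/sg hearts 1 to 4, and -0.25, -0.27, 0.31, -2.20 and 0.31 in WT hearts 1 to 5. A single heart in each group stood apart, RORasg/sg 2 on the high side and WT 4 on the low side. The difference was 0.65 (SE 0.753, 95% interval -0.99 to 2.29, limma adjusted p = 0.595), and -0.087 without RORasg/sg 2. Leaving out WT 4 gave 0.21. The highest heart was thus RORasg/sg 4 for Kcnip2, and RORasg/sg 2 for Kcnd3 and for the brighter probe of Kcnd2.

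Of the delayed rectifier genes, Kcna5, the gene of Kv1.5 that carries an ultrarapid current, read 4.04, 5.36, 4.80 and 4.65 in RORasg/sg hearts 1 to 4 and 3.60, 4.14, 3.90, 4.83 and 4.37 in WT hearts 1 to 5. Of these, RORasg/sg 2 alone lay above the WT range. The difference was 0.55 (SE 0.372, 95% interval -0.27 to 1.36, limma adjusted p = 0.432), close to the median of all genes, and it was 0.037 for the 5 brighter arrays and 0.11 for the 4 dimmer ones. Kcna5 passed only with array weights (0.77, limma adjusted p = 0.0339), in a fit that called 54.5% of all genes.

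Kcnq1, the KvLQT1 pore of the slow delayed rectifier, read 2.51, 2.94, 2.29 and 3.51 in RORasg/sg hearts 1 to 4 and 2.26, 2.65, 2.24, 2.91 and 2.39 in WT hearts 1 to 5. RORasg/sg 2 and 4 lay above the WT range, the first narrowly, and RORasg/sg 1 and 3 lay within it. Its difference of 0.32 (SE 0.391, 95% interval -0.53 to 1.18, limma adjusted p = 0.610) had an interval that holds 0 and the median of all genes alike.

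Kcnh2, the ERG1 pore of the rapid delayed rectifier, read -0.01, -1.09, -1.45 and -1.49 in RORasg/sg hearts 1 to 4 and -0.67, -0.99, -0.21, -1.49 and -1.13 in WT hearts 1 to 5. The 4 dimmer arrays, 3 RORasg/sg and 1 WT, held 3 of the 4 lowest values together with WT 5. Its difference of -0.11 (SE 0.471, 95% interval -1.14 to 0.92, limma adjusted p = 0.893) was the smallest of the 9 and turned positive without WT 3 (0.063), RORasg/sg 3 (0.038) or RORasg/sg 4 (0.050).

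**Figure D2:**
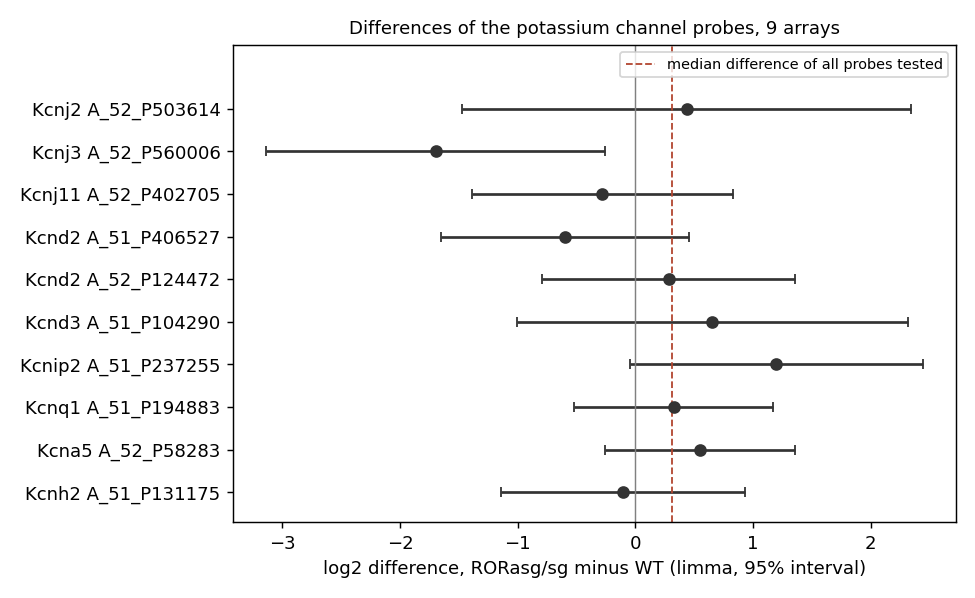
Log2 difference, RORasg/sg minus WT, of each of the 10 potassium channel probes with its 95% interval from limma across all probes (9 arrays), the dashed line marking the median difference of all probes tested (0.31). The interval of Kcnj3 alone leaves out 0, and the 2 probes of Kcnd2 lie on opposite sides of it.

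Set side by side, 6 members had a higher and 3 a lower mean in RORasg/sg hearts, where 66.6% of all genes had a higher one. Of the 9 members, 0 passed the threshold, in a comparison that called 0.0036% of all genes, and 1, Kcnj3, had an unadjusted p under 0.05, where 11.6% of all genes had one. The groups were free of overlap for 0 of the 9, and for 2.83% of all genes. The median difference of the members was 0.32, beside 0.41 for all genes. All 9 members had a larger SD among the RORasg/sg than among the WT hearts, as did 86.1% of all genes, and the median ratio of the SDs was 1.49 for the members and 2.11 for all genes. Against the WT mean, the median over the members was 0.11, 0.45, -0.20 and 0.48 in RORasg/sg hearts 1 to 4, while that of all genes was -0.39, 0.55, 0.65 and 0.75. RORasg/sg 1 was therefore 0.50 above its own array's shift, and RORasg/sg 3 stood at -0.85 relative to it.

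The sign of a difference held in some members and not in others when the arrays were divided. Kcnip2 was above 0 in both slides and in both brightness sets. Kcnq1 and Kcna5 were above 0 in both slides but close to 0 in a brightness set, Kcnq1 at 0.13 for the brighter and 0.0050 for the dimmer arrays, and Kcna5 at 0.037 for the brighter ones. Kcnj2 was also above 0 in these 4 divisions, at 0.39 and 0.86 within slides 1 and 2, 1.19 for the brighter and 2.49 for the dimmer arrays, the last against WT 4 alone, its lowest heart. Kcnj11 was 1.06 for the brighter and -1.51 for the dimmer arrays, and Kcnd3 -1.07 and 2.86. Kcnh2 was 0.74 for the brighter and 0.15 for the dimmer arrays, and 0.28 and -0.62 within slides 1 and 2. Each brightness set has a lone heart of one group, so these values assume that it varies like the other group's hearts. Brightness was also fitted as a covariate, with values given further below. The part of brightness in the differences was not tested beyond these fits.

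**Figure D3:**
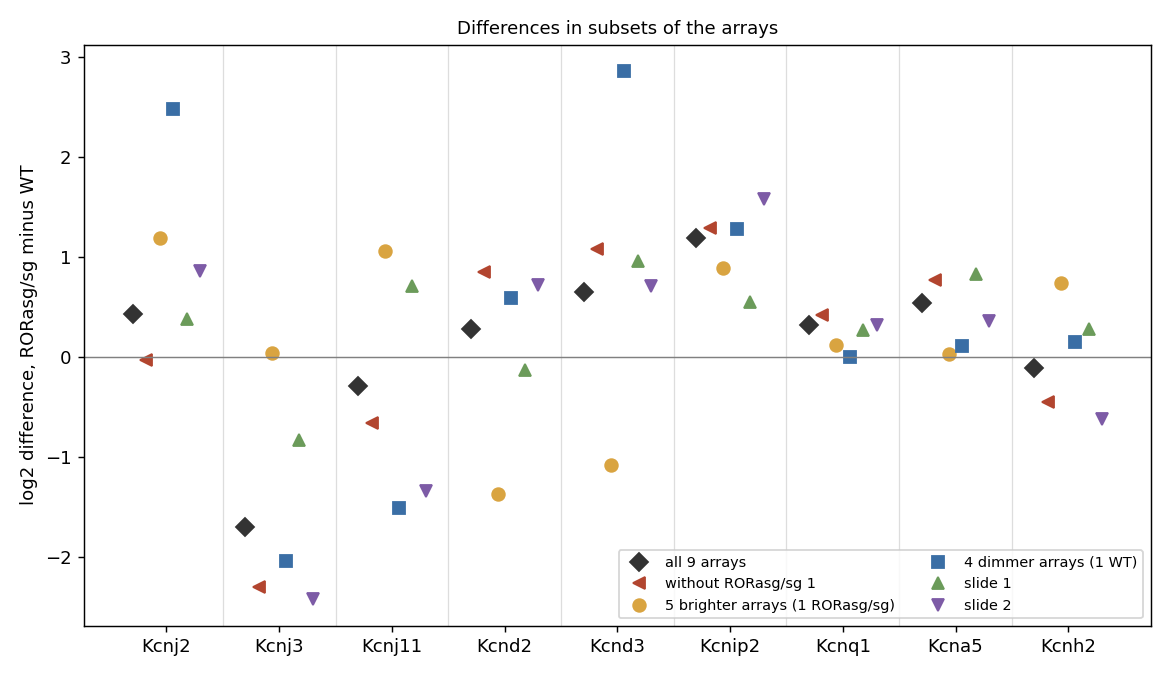
Log2 difference, RORasg/sg minus WT, of the 9 members over all 9 arrays, without RORasg/sg 1, in the 5 brighter arrays, the 4 dimmer ones, and within slides 1 and 2. Kcnip2, Kcnq1 and Kcna5 stay above 0 in all 6 sets, the last 2 with values near 0 among them, whereas Kcnj2, Kcnj3, Kcnj11, Kcnd2, Kcnd3 and Kcnh2 lie on both sides of 0.

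Beyond the members, 53 partner subunits and other potassium channel genes were examined, of which 49 were tested. Of these, 37 had a higher and 12 a lower mean in RORasg/sg hearts, where 66.6% of all genes had a higher one. The threshold was passed by 0, and 3 higher and 3 lower ones had an unadjusted limma p under 0.05. Among all genes, 11.6% had such a p in either direction. The median difference was 0.46, beside 0.41 for all genes. Kcne1, Kcnip3, Kcnh1 and Kcnk1 had the smallest p.

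Kcne1 encodes MinK, the subunit that joins KvLQT1 in the slow delayed rectifier. On the probe used for the gene, A_51_P211671, RORasg/sg hearts 1 to 4 read 2.43, 1.32, 2.79 and 1.48, and WT hearts 1 to 5 read -0.64, 0.68, -0.20, 1.86 and -0.39. WT 4 lay among the RORasg/sg hearts and the other WT hearts below all of them. The difference was 1.74 (SE 0.589, 95% interval 0.46 to 3.02, limma adjusted p = 0.399), or 3.34-fold higher. On its other probe, A_52_P71704, RORasg/sg hearts 1 to 4 read 1.15, 3.23, 2.35 and 2.07, and WT hearts 1 to 5 read -0.50, 0.45, -0.36, -0.15 and -0.66. There every RORasg/sg heart exceeded every WT heart, which held for 3.05% of all probes in either direction. That probe differed by 2.44 (SE 0.495, adjusted p = 0.315 in limma over all probes), by 1.41 for the 5 brighter arrays and by 2.70 for the 4 dimmer ones. Without RORasg/sg 1 it was 2.79 and passed (adjusted p = 0.00317 in limma over all probes). The probe used for the gene was then 1.60 and did not pass (adjusted p = 0.0726 in limma over all probes). Across genes, the fit without RORasg/sg 1 called 37.4% of all genes. The probe used for the gene gave 2.57 for the 5 brighter arrays, with RORasg/sg 1 alone, and 0.0032 for the dimmer ones, against WT 4 alone. Kcnq1, whose product MinK joins, differed by the 0.32 given above.

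**Figure D4:**
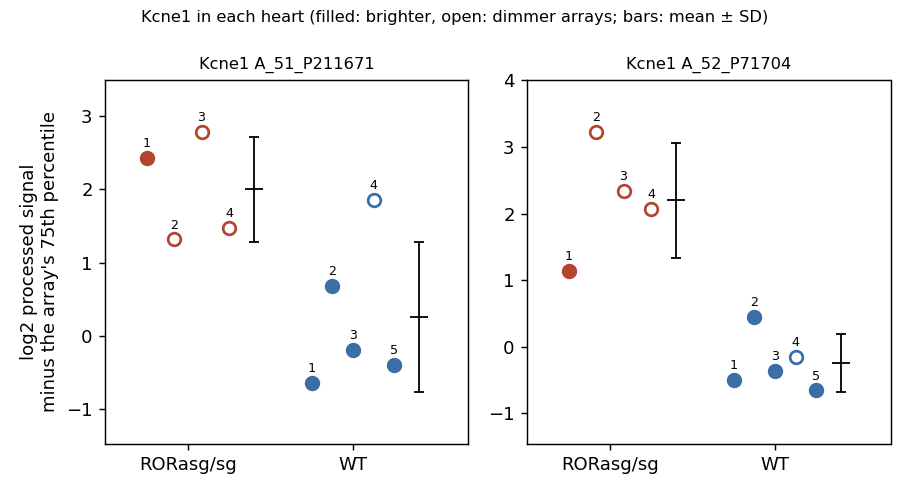
Signal of both Kcne1 probes (vertical axes, log2 processed signal minus the 75th percentile of the array) in the 4 RORasg/sg and the 5 WT hearts, numbered by replicate, with mean ± SD as bars. WT 4 lies among the RORasg/sg hearts on the first probe, and the groups do not overlap on the second.

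Kcnip3, a relative of KChIP2 also known as a calcium-dependent transcriptional repressor, gave opposite values on its 2 probes. The probe used for the gene differed by 1.38 (SE 0.472, limma adjusted p = 0.399), and the other, A_52_P185255, by -2.44 (SE 0.684), with a signal over background in 1 of 4 RORasg/sg and 5 of 5 WT arrays. Kcnh1, an EAG channel best known from the brain, differed by 1.72 (SE 0.649), with 4 of 4 RORasg/sg and 3 of 5 WT arrays over background. Kcnk1, the pore-domain channel TWIK, differed by -3.45 (SE 1.36), with 1 of 4 RORasg/sg and 4 of 5 WT arrays over background. It had its lowest WT value in WT 4 (-6.25), within the range of the RORasg/sg hearts (-6.98 to -1.78). Its difference was -0.17 for the 4 dimmer arrays. Without RORasg/sg 1, Kcnip3 (1.66), Kcnh1 (2.04) and Kcnk1 (-4.62) passed, with limma adjusted p of 0.0179, 0.0379 and 0.0288, in the fit that called 37.4% of all genes. For the 5 brighter arrays they were 0.49, 1.09 and -1.08 and did not pass.

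**Figure D5:**
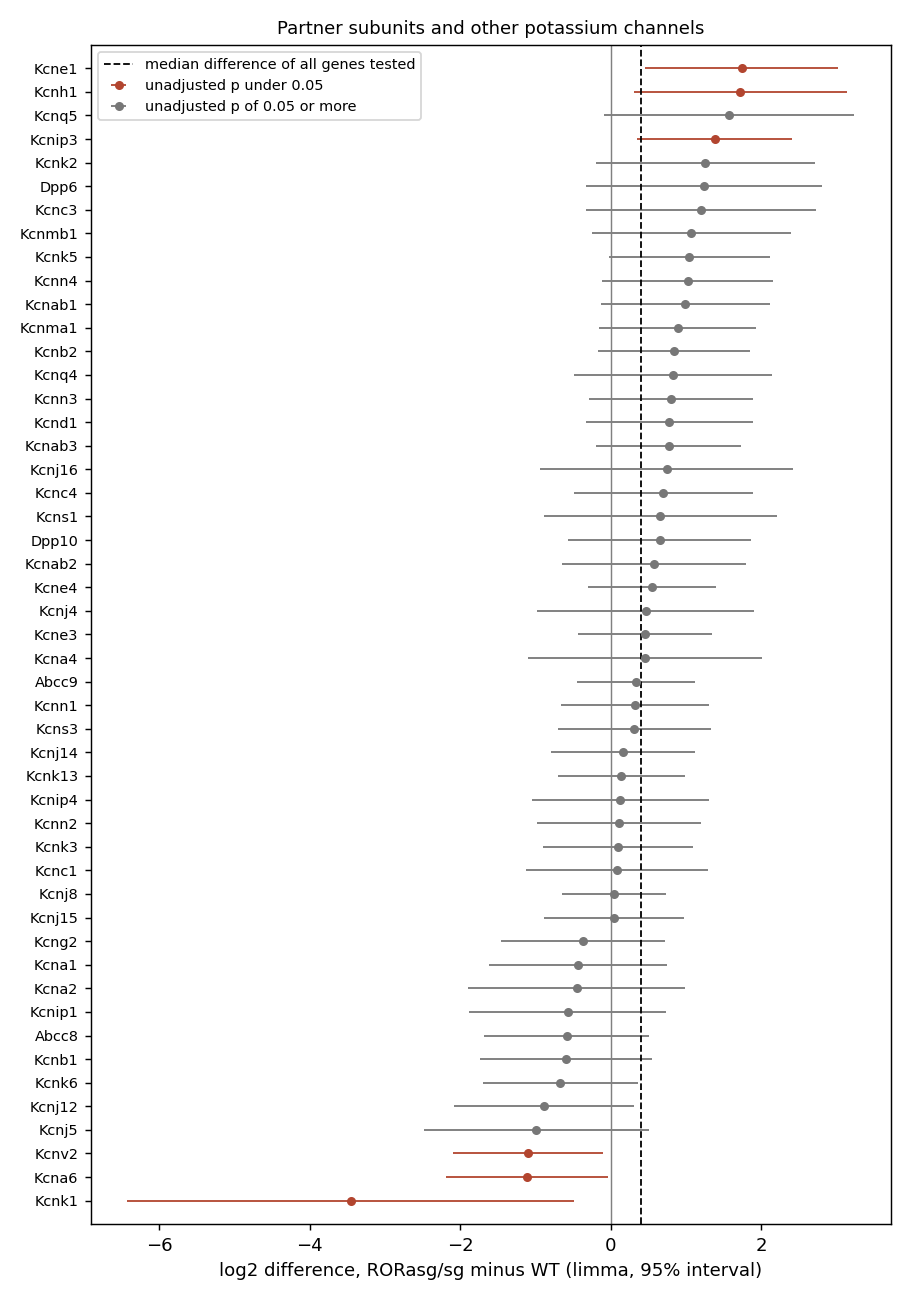
Log2 difference, RORasg/sg minus WT, of the 49 tested partner subunits and other potassium channel genes with 95% intervals from limma (9 arrays), those with an unadjusted p under 0.05 in red and the median of all genes (0.41) dashed. Kcne1 lies at the top and Kcnk1 at the bottom, and 37 of the 49 lie above 0, as do 66.6% of all genes.

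Transcription factors known to act on these channel genes gave 9 higher and 7 lower means among 16 tested, with 0 passing and a median of 0.22. Over all genes, 66.6% had a higher mean, 0.0036% passed and the median was 0.41. Nfatc3, a calcineurin-dependent factor tied to Kv channel repression, differed by -1.91 (SE 0.613, limma adjusted p = 0.385), with RORasg/sg hearts 1 to 4 at 1.87, -1.24, -1.05 and -0.16 and WT hearts from 1.33 to 2.09. It passed without RORasg/sg 1 (-2.58, limma adjusted p = 0.00404), in the fit that called 37.4% of all genes, and was 0.00070 for the 5 brighter arrays. As for Kcnj3, RORasg/sg 2, 3 and 4 lay below every WT heart on this probe and RORasg/sg 1 within their range. On the other probe of Nfatc3, A_52_P333419, which differed by -1.61 (SE 0.746), RORasg/sg 2 (-0.48) lay above WT 4 (-0.70). Irx3, a homeobox factor of the ventricular conduction system, differed by -1.20 (SE 0.588, limma adjusted p = 0.418). Its RORasg/sg hearts 1 to 4 read -1.79, -1.24, -4.14 and -1.24, all below the WT hearts (-1.04 to -0.75). The groups were free of overlap, in either direction, for 2.83% of all genes. Irx4, a ventricular homeobox factor, differed by -1.06 (SE 0.526), and Arntl, the gene of BMAL1, by 1.07 (SE 0.583). RORasg/sg 1 was the lowest of all hearts for Arntl (-4.72). Its difference was 1.71 without that heart (limma adjusted p = 0.0112), -0.70 for the 5 brighter arrays and 0.094 with brightness as a covariate. Irx4 also passed without RORasg/sg 1 (-1.42, limma adjusted p = 0.0382) and was -0.16 for the brighter arrays.

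Scaffold, trafficking and second-messenger partners gave 5 higher and 5 lower means among 10 tested, again with 0 passing. Their median was -0.037, beside 0.41 for all genes, of which 66.6% had a higher mean and 0.0036% passed. Camk2d, the cardiac calmodulin-dependent kinase, differed by 1.0 (SE 0.506) on its brightest probe and by -2.32 (SE 0.766) and -4.08 (SE 1.23) on the others. On the brightest probe RORasg/sg 1 was the lowest of all hearts (4.50). The difference was 1.61 without it (limma adjusted p = 0.00803), in the fit that called 37.4% of all genes. That probe differed by -0.64 for the 5 brighter arrays and by 0.046 with brightness as a covariate. Nedd4l, a ubiquitin ligase, differed by -0.82 (SE 0.530) and by 0.32 for the brighter arrays. Without RORasg/sg 1 it differed by -1.25 (limma adjusted p = 0.0411), in that same fit. Sntb1, a syntrophin, differed by 0.78 (SE 0.554) and by -0.086 for the brighter arrays.

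Cell type markers were read in the same arrays, by list. Over all genes, 66.6% had a higher mean in RORasg/sg hearts, and the median difference was 0.41. All 8 cardiomyocyte markers had a lower mean in RORasg/sg hearts, with a median of -0.79 and 0 passing. Their mean log2 signal per array ran from 3.06 to 5.70 in RORasg/sg and from 5.32 to 5.56 in WT hearts, and their median deviation from the WT mean was 0.13, -0.20, -1.80 and -1.23 in RORasg/sg hearts 1 to 4. All 4 ventricular markers had a lower mean (median -1.22, array means 0.072 to 1.96 in RORasg/sg and 1.86 to 2.92 in WT), among them Myl2 at -1.29. Of 7 atrial markers, 5 had a higher and 2 a lower mean (median 0.92, array means -1.99 to -0.92 in RORasg/sg and -2.19 to -1.41 in WT), with Myl7 at 1.60 and Nppa at -1.20 on its brightest probe and 1.23 on the other. All 6 conduction system markers had a higher mean (median 0.49, array means -2.42 to -0.84 in RORasg/sg and -2.78 to -1.80 in WT), with Hcn4 at 1.07. Their median deviation from the WT mean was -0.62, 0.11, 0.83 and 1.67 in RORasg/sg hearts 1 to 4. Endothelial markers had 4 of 6 lower (median -1.25, array means -0.37 to 1.98 in RORasg/sg and 1.18 to 1.74 in WT), smooth muscle and pericyte markers 3 of 6 (median -0.57, 1.52 to 3.33 in RORasg/sg and 2.67 to 3.34 in WT), fibroblast markers 2 of 6 (median 0.23, 2.22 to 3.13 in RORasg/sg and 1.73 to 3.08 in WT) and macrophage markers 3 of 5 (median -0.055, -0.86 to 0.0098 in RORasg/sg and -0.63 to -0.39 in WT). Of the smooth muscle and pericyte markers, Acta2 differed by -1.28 on its brightest probe and by 0.85, 0.57 and 0.41 on the others. The count and median of that list thus depend on the probe used. Neuronal markers had 5 of 6 higher (median 0.62, array means -4.72 to -2.27 in RORasg/sg and -4.15 to -3.49 in WT). Both tested erythroid markers had a lower mean (median -2.52, -2.19 to 3.07 in RORasg/sg and 1.53 to 2.40 in WT), and skeletal muscle markers had 2 of 3 lower (median -0.00021, -0.37 to 0.058 in RORasg/sg and -0.71 to -0.015 in WT). Of the markers on the array, 0 were below background on all arrays, and 0 passed the threshold. The part of cell composition in the values of Kcnj3, Kcnip2 and Kcne1 was not tested.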

How the data were processed

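RNA from 9 whole hearts was measured, and the deposited files hold 1 Agilent Feature Extraction output for each array. Per the labels' protocols, 70 ng of total RNA was amplified (NuGEN Ovation Pico WTA) and 5 ug of the product was labelled with Cy3. Per the file headers, the array design was 014868, its grid build mm9, the reader Feature Extraction 12.0.0.7 and the protocol GE1_1200_Jun14. Agilent Feature Extraction 12 is also given per the submitters' processing notes. The deposited intensity is the background-subtracted signal of a spot, linear and not scaled between arrays. The series' value table equals it (largest relative difference 0 on each array).

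Of 45018 spots, 43379 were not controls; 758 outlier-flagged spots over the 9 arrays were left out, and 0 were saturated. Repeat spots were averaged per probe, and log2 of the processed intensity was centred on the 75th percentile of its array. A probe was kept where 4 or more of 9 arrays had it well above background (36402 of 41174), and the kept probe with the highest mean stood for its gene (27773 genes). Names come from a GRCm38.p6 table that matched 28215 probes. That build is not the grid's, so coordinates are given for the promoter windows alone, in GRCm38.p6. The genotypes were compared in R 4.3.3 by limma 3.58.1, using lmFit and a trended eBayes, with Benjamini-Hochberg adjustment over all genes, or over all kept probes for probe values, and a threshold of 0.05. The fit was tested on simulated data that gave both groups the WT SD of each probe. That test does not cover the larger SD that most genes had among the RORasg/sg hearts. The R package data.table (1.17.8) and, in Python 3.11.15, pandas 2.3.3, numpy 2.4.6 and matplotlib 3.10.9 were also used.

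The text names all members and their probes, Rora, the 3 genes most like the member of smallest p, and the 4 genes of smallest p from each of the lists of other potassium channels, transcription factors and scaffold partners, of which 1 is not reported here. Marker lists are given as counts and array means with a few examples. Those examples and Kcnj5, Abcc9 and Kcnj8 were chosen after their values were seen. The members and lists were chosen with earlier results of these data known. Alternatives were other scalings, background correction, filters and probe rules, slide, replicate number and brightness, array weights, other moderation settings, and each array left out in turn. The number of arrays limits the precision.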

Additional observations from a re-analysis of the deposited data

Results flagged for a closer look

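Each of the 20 groups of values, 10 probes in 2 genotypes, was searched for a heart far from the others by Dixon's test, which flags about 1 in 20 groups by chance. It picked 3, all of them WT 4, the dimmer WT array. WT 4 was the lowest WT heart for Kcnj2 (-4.90, the next at -2.25), for the probe A_51_P406527 of Kcnd2 (-1.19, the next at -0.18) and for Kcnd3 (-2.20, the next at -0.27). Without WT 4 the log2 difference was -0.19 for Kcnj2, in place of 0.44, and 0.21 for Kcnd3, in place of 0.65.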

How the results depend on the processing

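Under 28 alternatives, a member passed in limma across all genes in 3: array weights, the 5 brighter arrays and leaving out RORasg/sg 1, where Kcnj3 (-2.30) and Kcnd2 (0.85) did. The fit without RORasg/sg 1 called 37.4% of all genes. With array weights Kcnj3 (-1.95, adjusted p = 0.00375), Kcnd2 (0.69, 0.0366) and Kcna5 (0.77, 0.0339) passed, in a fit that called 15130 genes, 54.5% of all. In the 5 brighter arrays, with 1 RORasg/sg heart, Kcnd2 passed (-1.36), 1190 genes were called, and Kcnj3 (0.043), Kcnj11 (1.06), Kcnd3 (-1.07) and Kcnh2 (0.74) turned sign. Signs also turned without scaling for Kcnj2 (-0.14), Kcnd2 (-0.29), Kcnq1 (-0.25) and Kcna5 (-0.027), with quantile normalization for Kcnd2 (-0.031), with the mean of its probes for Kcnd2 (-0.16), with array weights for Kcnj2 (-1.10), within slide 1 for Kcnj11 (0.71), Kcnd2 (-0.12) and Kcnh2 (0.28), in the 4 dimmer arrays for Kcnh2 (0.15), and with brightness as a covariate for Kcnj11 (0.049), Kcnd2 (-0.54) and Kcnh2 (0.44). The cause was not tested. Kcnip2 kept its sign under all 28, of which those on moderation, filters and probe rules could not change its value. The members' median of 0.32 was 0.19 with quantile normalization, -0.25 without scaling, 0.18 with normexp, 0.0095 with array weights, 0.097 with brightness as a covariate, 0.13 for the brighter and 0.15 for the dimmer arrays, where all genes had 0.30, -0.17, 0.16, 0.69, 0.0099, -0.34 and 0.50. The count of genes called, 1 in all 9 arrays, was 2 with quantile normalization, 3 without scaling, 9 with the replicate block, and 0 with probes detected on all arrays, the mean of probes, the slide as a block, either slide alone or the dimmer arrays (limma, with 404 to 5535 genes at an unadjusted p under 0.05).

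Leaving out single arrays gave 0 to 10389 genes called, a members' median of -0.0024 to 0.50, and differences of -0.19 to 1.10 for Kcnj2, -2.30 to -1.0 for Kcnj3, -0.66 to -0.071 for Kcnj11, -0.0024 to 0.85 for Kcnd2, -0.087 to 1.08 for Kcnd3, 0.60 to 1.55 for Kcnip2, 0.093 to 0.50 for Kcnq1, 0.33 to 0.77 for Kcna5 and -0.44 to 0.063 for Kcnh2. With the replicate number as a block, Kcnj3 was -1.62 and Kcnip2 1.07, and this replicate block changed no member's call. Deviations of same-numbered arrays correlated at 0.046, -0.0069, -0.33 and 0.39 for numbers 1 to 4. Same-numbered arrays also shared a slide, and these correlations cannot show whether they share anything more. The main fit used no pairing. The 95% intervals given for the members show the size of difference that 4 and 5 arrays could resolve.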
